A study of Mus musculus with 12 samples.

Results

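Astrocytes captured from mouse medulloblastoma, a tumor of the cerebellum, were compared with astrocytes captured from normal cerebellum, across all genes with enough counts and across functions that reach beyond the usual marker lists. The libraries were chosen by their labels, which put 4 libraries in the tumor-derived group and 4 in the normal group, 8 of the 12 libraries of the series. The remaining 4 libraries are granule neuron progenitor-like tumor cells (GNP) and are used here only to show how much of a marker list those cells carry. All 8 astrocyte libraries carry the strain label C57BL/6. The tumor-derived libraries are described as astrocytes of the tumor, with no age, and the normal ones as adult astrocytes of the cerebellum. The sources used here do not give the tumor model's genotype or how the cells were recognised. Cells were cut by laser from frozen sections fixed in ethanol and cleared in xylene, and their cDNA, restricted to the 3′ ends of transcripts, was amplified again before sequencing. No label ties a library to an animal, so libraries of 1 group may share animals. The p-values measure only the spread between libraries and are too small if they do.

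Astrocytes are glial cells that take up glutamate and potassium, supply neurons with metabolites and wrap synapses and vessels. In the cerebellum they include the Bergmann glia, whose processes run among the dendrites of Purkinje cells, and the velate astrocytes around granule neurons. Mature astrocytes divide rarely, whereas the granule neuron progenitors from which the hedgehog-driven form of medulloblastoma grows divide fast. The series' title names a trans-differentiation of tumor cells into astrocytes, and the comparison asks how astrocytes found in such a tumor differ from those of the normal cerebellum.

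The libraries held between 8679971 and 12626596 counts in tumor-derived astrocytes and between 8838441 and 11287457 counts in normal astrocytes. Between 19174 and 20460 genes had at least 1 count in a tumor-derived library, against 14768 to 16306 in a normal one. Replicates of the normal group differed more: the biological coefficient of variation was 0.426 among tumor-derived and 0.898 among normal libraries. Tumor-derived library 1 stood apart from its group, with Spearman correlations across genes of 0.872 to 0.875 with the other tumor-derived libraries, which correlated at 0.927 to 0.943 with each other. It held more counts of skeletal muscle genes than the other 7 astrocyte libraries, such as the myosin light chain gene Mylpf at 346 CPM (the count scaled to the normalised library size), against 4.48 to 5.87 CPM in the other 3 of its group. The list of ependymal, choroid and muscle markers took 0.136% of counts in tumor-derived library 1, 0.00292% to 0.00379% in the other tumor-derived libraries, 0.000509% to 0.025% in normal libraries and 0.0892% to 0.117% in GNP libraries. Normal libraries 1 and 2 differed from 3 and 4 in some genes, and the numbers in their titles lie close within each pair. The astrocyte marker Gpr37l1 had 324 and 313 CPM in 1 and 2, against 1225 and 1251 CPM in 3 and 4. Gabrd, a GABA receptor gene, had 2814 and 3554 CPM, against 940 and 1233 CPM. Spearman correlations were 0.803 and 0.816 within the pairs and 0.74 to 0.811 across them. The origin of this split was not tested. Captured regions can hold the RNA of neighbouring cells, and in such samples fewer cells of a type and less RNA per cell cannot be told apart.

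The astrocyte label was checked against 24 marker genes, of which 22 had enough counts. They took 0.325% to 0.618% of all counts in tumor-derived libraries, 1.12% to 1.79% in normal libraries and 0.132% to 0.181% in GNP libraries. Of the 22 markers, 12 fell in tumor-derived astrocytes (54.5%, where 16.6% of all genes tested fell) and 1 rose (17.0% of all genes rose), at an adjusted p under 0.05 in edgeR's quasi-likelihood test, and their median log2 fold change was -1.44, against 0.05 over all genes. The number that rose was 2 without tumor-derived library 1 or normal library 2. Gjb6, a gap junction gene of astrocytes, had 1.54, 7.54, 2.24 and 3.09 CPM in tumor-derived astrocytes, against 46.5, 62, 82.8 and 63.2 CPM in normal astrocytes, without overlap (a log2 fold change of -4.14 ± 0.56, edgeR adjusted p = 0.0005). Cldn10, a tight junction gene, averaged 1.15 CPM across tumor-derived libraries, against 26.7 CPM across normal ones (edgeR adjusted p = 0.00263), and the bicarbonate transporter gene Slc4a4 averaged 9.02 CPM, against 51.1 CPM in normal libraries (edgeR adjusted p = 0.0012). The growth factor receptor gene Fgfr3 fell by 2.92 and the glutamate transporter gene Slc1a2 by 1.46 on the log2 scale (edgeR adjusted p = 0.00233 and 0.0202). The marker that rose was Agt, angiotensinogen, with 135, 211, 198 and 198 CPM in tumor-derived astrocytes, against 31.8, 80.4, 15.7 and 43.8 CPM in normal astrocytes (a log2 fold change of 2.11 ± 0.45, edgeR adjusted p = 0.00509). Aldh1l1, a folate enzyme and pan-astrocyte marker, had 210, 294, 225 and 322 CPM in tumor-derived astrocytes, against 123, 136, 430 and 199 CPM in normal astrocytes, and the groups overlapped. Apoe, the lipid carrier, overlapped as well, with 996 to 3186 CPM in tumor-derived and 994 to 1791 CPM in normal astrocytes. Gja1, which encodes the main astrocyte gap junction protein, stayed at or under 0.71 CPM in all 8 libraries, and Sox9, a glial transcription factor, at or under 3.74 CPM. Several markers were thus present in both groups, most of those called were lower in tumor-derived astrocytes, and these 2 defining ones were near 0 in both.

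Other cell types moved with the groups. Markers of granule progenitors and tumor cells took 0.161% to 0.188% of counts in tumor-derived libraries, 0.0209% to 0.0399% in normal libraries and 0.286% to 0.306% in GNP libraries. Of 13 tested members of that list, 8 rose (61.5%) and 5 were not called. Its sum was 1720 to 2100 CPM in tumor-derived libraries, with Mki67 at 623 to 969 CPM and Sfrp1 at 536 to 704 CPM. The progenitor factor gene Atoh1 had 3.55 to 12.5 CPM there. Mature neuron markers took 0.199% to 0.327% in tumor-derived, 0.633% to 0.794% in normal and 0.202% to 0.223% in GNP libraries. Purkinje cell and interneuron markers took 0.0934% to 0.203% in tumor-derived and 0.432% to 1.73% in normal libraries. Markers of microglia and macrophages took 0.0882% to 0.104% in tumor-derived and 0.0215% to 0.059% in normal libraries, while the microglial receptor gene P2ry12 had too few counts for the test. Markers of endothelial cells, pericytes and blood took 0.028% to 0.0464% in tumor-derived, 0.121% to 0.307% in normal and 0.000729% to 0.00104% in GNP libraries. This pooled share hides members that differ: of 15 tested, 1 rose (6.67%), 4 fell (26.7%) and 10 were not called. Over the fit reported and its alternatives, the log2 fold change of the haemoglobin gene Hbb-bs was -3.68 to -2.71. For the endothelial genes Cldn5 and Flt1 it was 0.87 to 1.19 and -2.34 to -1.11. Oligodendrocyte lineage markers took 0.024% to 0.0344% in tumor-derived, 0.0542% to 0.106% in normal and 0.00579% to 0.00789% in GNP libraries. The part these cells play in the results below was not tested.

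**Figure D1:**
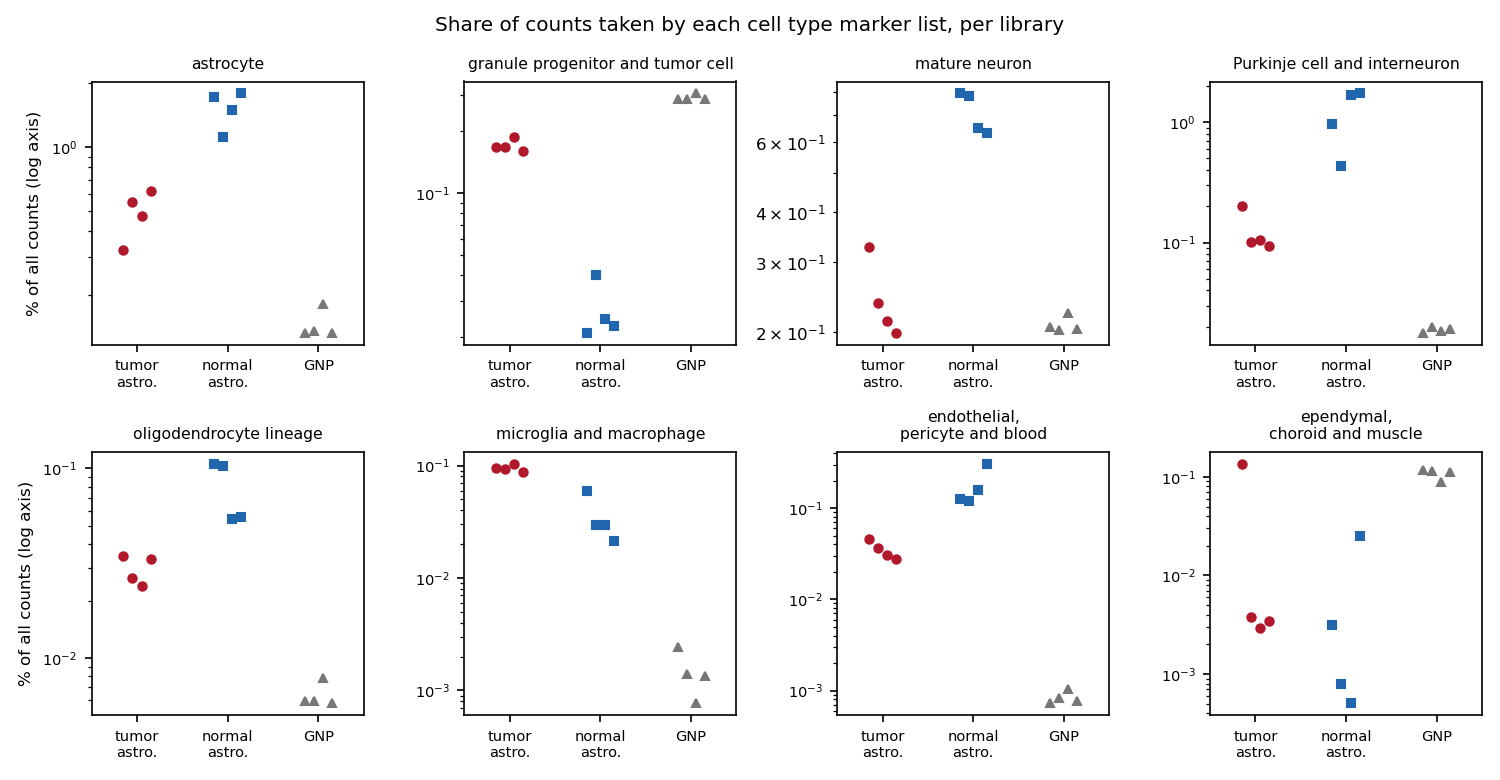
Share of all counts (log axis, each panel with its own range) taken by 8 lists of cell type markers in each library of tumor-derived astrocytes (red circles), normal astrocytes (blue squares) and GNP (grey triangles). Astrocyte markers lie between 0.325% and 0.618% in tumor-derived and between 1.12% and 1.79% in normal libraries; the single high tumor-derived point for muscle genes is library 1.

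Of 13149 genes with enough counts, 2233 rose in tumor-derived astrocytes (17.0%) and 2179 fell (16.6%), at an adjusted p under 0.05 in edgeR's quasi-likelihood test, so that 33.6% were called in all. These shares are the background against which each gene group below is to be read. For single genes, the CPM of 38.3% of those tested did not overlap between the groups, in one direction or the other. Amounts given after "rose by" or "fell by" are log2 fold changes. The median log2 fold change, tumor-derived over normal, was 0.05 over all genes tested, 2.88 over those that rose and -2.23 over those that fell. At least 8-fold differences were called for 1085 genes that rose and 589 that fell. Calls came more often at high levels: 22.8% of genes averaging under 10 CPM were called, 36.8% of those between 10 and 100 CPM and 53.1% of those above 100 CPM. The genes that rose took 51.5% to 55.4% of all counts in tumor-derived libraries and 17.0% to 21.4% in normal libraries. Those that fell took 7.35% to 10.2% in tumor-derived libraries and 34.5% to 38.3% in normal ones.

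**Figure D2:**
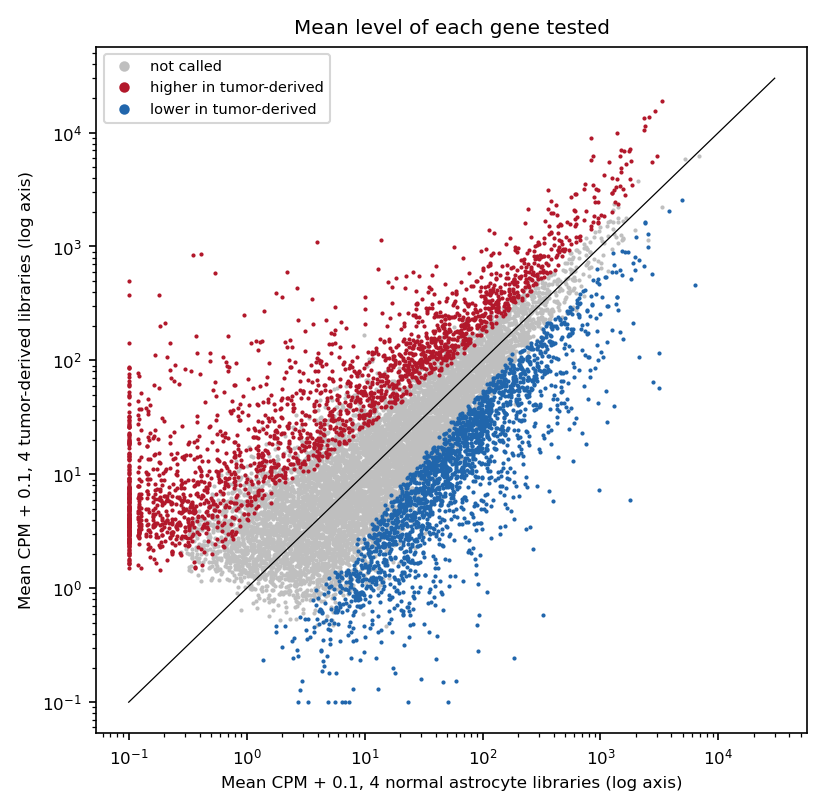
Mean CPM plus 0.1 in the 4 tumor-derived libraries (vertical, log axis) against the 4 normal libraries (horizontal, log axis) for the 13149 genes tested, with 2233 that rose in red, 2179 that fell in blue and the rest in grey. The column of points at the left edge holds the 237 tested genes without a count in any normal library; the row at the bottom holds the 9 without a count in any tumor-derived library.

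Among the genes tested, absence lay mostly on the normal side. A gene absent from 1 group had enough counts for the test only through the other group. Normal libraries also held fewer genes with a count, 14768 to 16306 against 19174 to 20460 in tumor-derived ones. How far these 2 points set the numbers below was not tested. No normal library held a count of 237 tested genes, and 61 of those had at least 5 CPM in every tumor-derived library, whereas 9 tested genes had no count in any tumor-derived library. Igfbpl1, which encodes a protein related to the insulin-like growth factor binding proteins (chromosome 4, 45809468 to 45826923, mm10), had 219, 600, 670 and 506 CPM in tumor-derived astrocytes and no count in the normal libraries. It was at least 1855-fold higher in tumor-derived astrocytes, taking 3 counts in a normal library as the floor. Hsd11b2, which encodes the enzyme that inactivates glucocorticoids (chromosome 8, 105518746 to 105523984), had 78.1, 84.6, 110 and 66.6 CPM in tumor-derived astrocytes and was at least 316-fold higher. In the other direction a single gene had at least 5 CPM in every normal library and none in the tumor-derived ones, the unnamed transcript Gm13944 (chromosome 2, 77462669 to 77480938). It had no count in tumor-derived astrocytes and 35.9, 59, 74.2 and 33.7 CPM in normal astrocytes, at least 156-fold lower. Crtam, an immunoglobulin-family receptor known from activated T cells, fell to 1.78, 4.36, 1.28 and 4.18 CPM in tumor-derived astrocytes, against 189, 152, 154 and 67.9 CPM in normal astrocytes.

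Gene functions separated into those whose members mostly rose, those whose members mostly fell, and a middle group in which single members of 1 family moved in opposite directions. DNA replication, mitosis, histone-handling proteins, ribosome biogenesis and translation factors rose in larger shares than the background, and synaptic vesicle, channel, pump and second messenger genes fell in larger shares. The lists are described by counts and medians, and no test was made of a list as a whole.

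**Figure D3:**
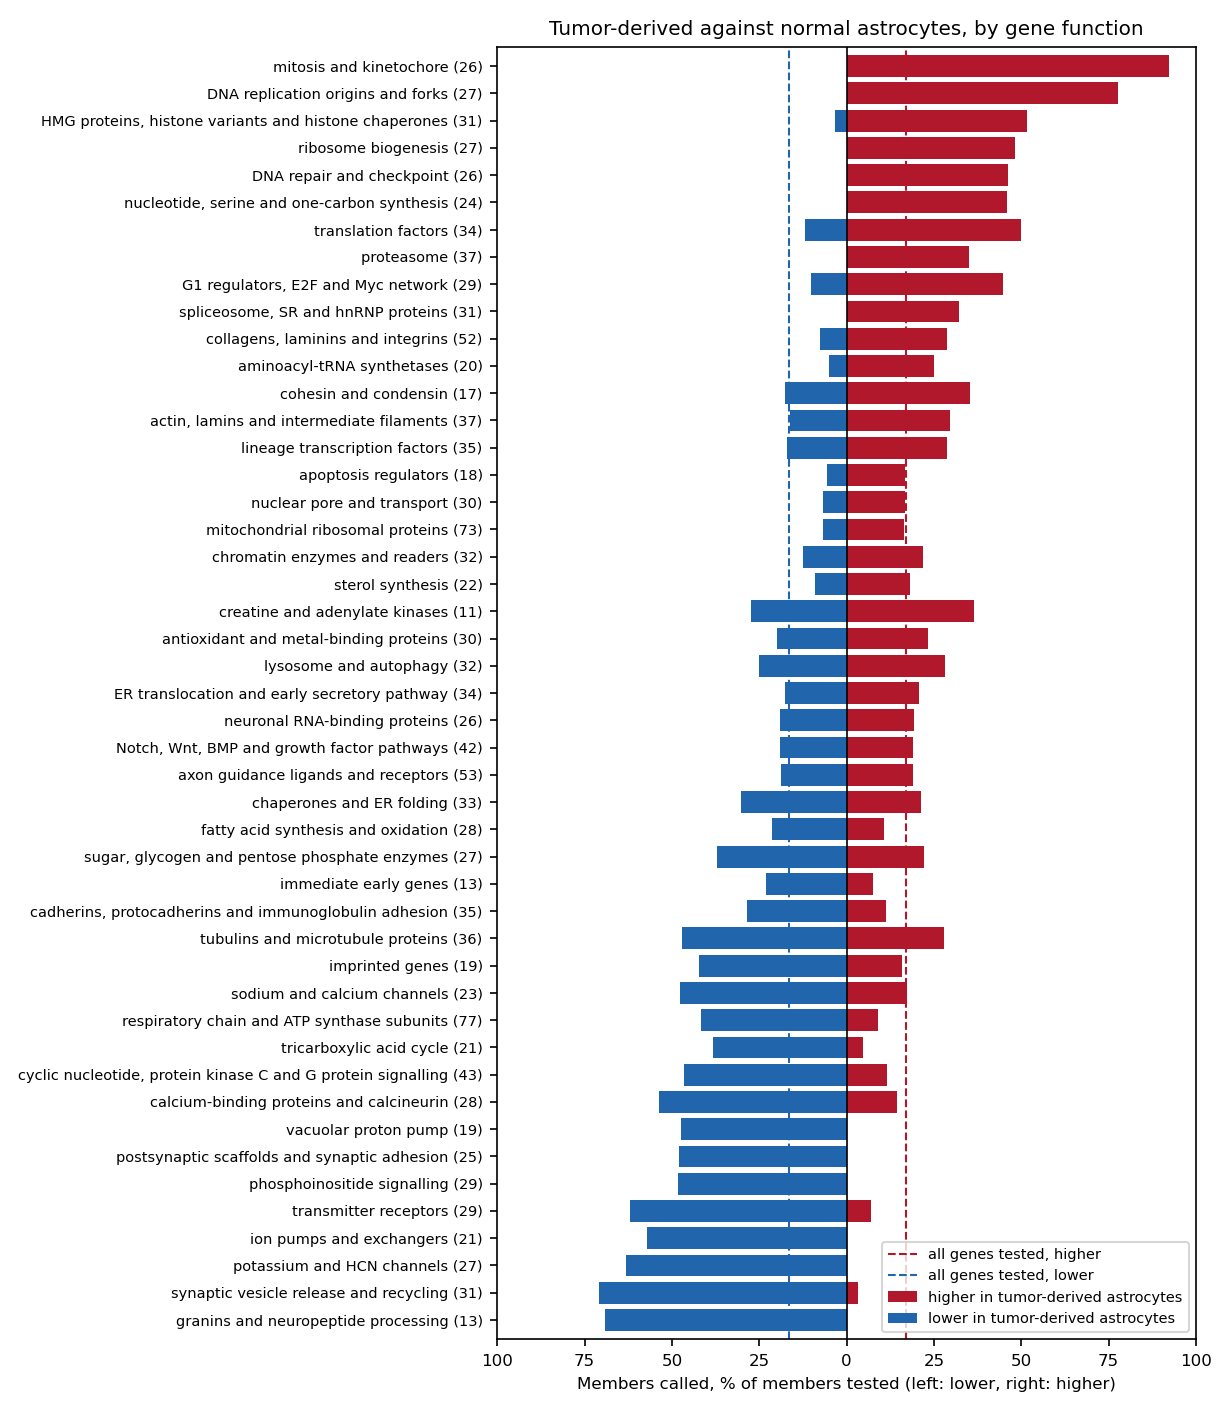
Percent of the tested members of 47 gene function lists that rose (red, to the right) or fell (blue, to the left) in tumor-derived against normal astrocytes, with the number tested in parentheses. Dashed lines mark the shares over all 13149 genes, 17.0% higher and 16.6% lower. Mitosis (92.3% higher) and synaptic vesicle release (71.0% lower) lie at opposite ends.

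Of 27 tested genes of replication origins and forks, 21 rose (77.8%) and the other 6 were not called, with a median log2 fold change of 3.15. Mcm6, a subunit of the helicase that opens DNA at the fork (chromosome 1, 128331590 to 128359664), had 325, 736, 699 and 751 CPM in tumor-derived astrocytes, against 22.3, 19.4, 5.17 and 4.67 CPM in normal astrocytes. The groups lay far apart, library 1 was the lowest of the tumor-derived ones, and the log2 fold change was 5.60 ± 0.62 (SE; edgeR adjusted p = 0.000176). Rfc2, a subunit of the clamp loader, rose less, by a log2 fold change of 2.29 ± 0.28 (edgeR adjusted p = 0.00027). Mitosis and kinetochore genes rose in 24 of 26 cases, and their median was 7.61 on the log2 scale (6.78 once the 5 members without a count in 1 group are set at their bound). Incenp, the scaffold of the chromosomal passenger complex, rose by 2.13 ± 0.55 on the log2 scale (edgeR adjusted p = 0.013). Replication genes took 0.309% to 0.482% of counts in tumor-derived, 0.0554% to 0.0805% in normal and 0.47% to 0.525% in GNP libraries. Mitosis genes took 0.0986% to 0.144% in tumor-derived, 0.00248% to 0.00876% in normal and 0.331% to 0.357% in GNP libraries.

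Promoters of the replication list were read for the letters of E2F sites, since E2F factors drive many genes of DNA synthesis and E2F genes moved in these data. The sequences are the 250 bases before the first RefSeq start of each gene (GRCm38.p6), on the gene's strand, with capitals for matches to TTTCCCGC, TTTGGCGC or TTTCGCGC (E2F) or TTTGAA (the cell cycle homology region, CHR), searched on both strands; adjoining capitals are overlapping matches of both strands. Mcm5, Mcm6 and Mcm7 encode subunits of the replicative helicase. Cdk1, of the mitosis list, encodes the kinase that drives entry into mitosis, and its promoter holds both motifs. All promoters shown hold E2F letters, which most promoters of both lists lack, so they are examples of a match and do not stand for their lists.
Mcm5, chr8:75109259-75109508, plus strand: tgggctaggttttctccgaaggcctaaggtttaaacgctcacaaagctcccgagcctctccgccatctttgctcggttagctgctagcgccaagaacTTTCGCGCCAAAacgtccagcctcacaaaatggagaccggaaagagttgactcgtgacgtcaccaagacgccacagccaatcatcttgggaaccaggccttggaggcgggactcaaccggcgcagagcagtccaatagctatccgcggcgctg
Mcm6, chr1:128359706-128359955, minus strand: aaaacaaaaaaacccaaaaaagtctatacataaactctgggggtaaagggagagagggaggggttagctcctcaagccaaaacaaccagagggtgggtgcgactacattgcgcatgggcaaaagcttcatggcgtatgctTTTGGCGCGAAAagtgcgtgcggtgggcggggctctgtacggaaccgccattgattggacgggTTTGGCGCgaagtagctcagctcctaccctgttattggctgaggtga
Mcm7, chr5:138171884-138172133, minus strand: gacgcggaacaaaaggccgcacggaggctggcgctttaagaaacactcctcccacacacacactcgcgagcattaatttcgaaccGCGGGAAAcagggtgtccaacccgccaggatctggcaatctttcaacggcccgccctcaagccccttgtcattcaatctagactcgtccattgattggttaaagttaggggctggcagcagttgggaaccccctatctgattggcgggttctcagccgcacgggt
Cdk1, chr10:69352913-69353162, minus strand: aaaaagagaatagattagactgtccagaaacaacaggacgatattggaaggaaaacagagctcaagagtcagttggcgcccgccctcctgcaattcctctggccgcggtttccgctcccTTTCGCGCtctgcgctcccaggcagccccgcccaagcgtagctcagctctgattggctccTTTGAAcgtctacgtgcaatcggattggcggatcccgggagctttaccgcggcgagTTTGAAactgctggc

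E2F letters stood in 8 of 24 replication promoters with a RefSeq entry (33.3%), in 1 of 21 mitosis promoters (4.76%), in 3.01% of the promoters of all genes tested and in 1.59% of all 27025 promoters in the table. Among the promoters of genes that rose the share was 4.24%, and among those of genes that fell 2.44%. CHR letters stood in 6 of 21 mitosis promoters (28.6%), in 16.7% of replication promoters and in 9.77% of the promoters of all genes tested, but also in 16.3% of all promoters in the table. The matches describe letters and no binding.

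The E2F, cyclin and Myc network split by member. Of 29 tested genes 13 rose (44.8%) and 3 fell. Ccnd2, cyclin D2, which carries cells through G1, had 506, 1243, 1147 and 1442 CPM in tumor-derived astrocytes, against 0.169, 6.1, 2.94 and 6.2 CPM in normal astrocytes (a log2 fold change of 8.14 ± 0.87, edgeR adjusted p = 0.000159). E2f2, an activating E2F, had 74.1, 83.2, 76.8 and 70.1 CPM in tumor-derived astrocytes and no count in normal ones, at least 283-fold higher. Mxd3, a Max partner, ranged from 44.9 to 59.9 CPM in tumor-derived astrocytes and also had no count in normal ones, at least 186-fold higher. The 3 that fell were the CDK inhibitor gene Cdkn2d and the E2F genes E2f5 and E2f6, named here after their values were seen. Cdkn2d missed the threshold without tumor-derived library 2 or 4 (edgeR adjusted p = 0.0586 and 0.0602), and E2f5 without library 3 (edgeR adjusted p = 0.052).

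Enzymes that make DNA precursors rose in 11 of 24 cases, with a median log2 fold change of 1.64. Shmt2, the mitochondrial enzyme that turns serine into one-carbon units (chromosome 10, 127517123 to 127522444), had 143, 391, 382 and 474 CPM in tumor-derived astrocytes, against 22.1, 16.9, 46.4 and 35.7 CPM in normal astrocytes. Its log2 fold change was 3.52 ± 0.46 (edgeR adjusted p = 0.000388). Phgdh, the first enzyme of serine synthesis and itself abundant in astrocytes, had 163, 320, 175 and 196 CPM in tumor-derived astrocytes, against 6.07, 37.5, 19 and 23.5 CPM in normal astrocytes (a log2 fold change of 3.31 ± 0.51, edgeR adjusted p = 0.00105). Impdh2, which commits purines to guanine nucleotides, rose by 1.35 ± 0.29 (edgeR adjusted p = 0.00521). For each of these genes every tumor-derived library lay above every normal one, while 38.3% of all genes tested did not overlap in one direction or the other.

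Chromatin proteins did not move as a block. HMG proteins, histone variants and histone chaperones rose in 16 of 31 cases (51.6%) and fell in 1, whereas chromatin enzymes and readers rose in 7 of 32 and fell in 4, near the background. Chaf1b, a subunit of the chaperone that loads histones behind the fork, had 66.8, 171, 170 and 159 CPM in tumor-derived astrocytes and no count in normal ones, at least 528-fold higher. The one that fell was Nap1l5, an imprinted member of the nucleosome assembly protein family, with 1.54, 0.943, 0.533 and 1.73 CPM in tumor-derived astrocytes, against 31.4, 43, 110 and 48.9 CPM in normal astrocytes (a log2 fold change of -5.60 ± 0.62, edgeR adjusted p = 0.000177). Within the SWI/SNF remodelling complex the alternative ATPases moved apart: Smarca4 rose by 0.88 ± 0.20 and Smarca2 fell by 1.65 on the log2 scale (SE 0.38; edgeR adjusted p = 0.00674 and 0.00791). Smarca2 had 20, 11.3, 14.5 and 10.4 CPM in tumor-derived astrocytes, against 36.5, 49.3, 53.6 and 36.7 CPM in normal astrocytes. The core subunit gene Smarcc1 rose by 2.81 ± 0.33 (edgeR adjusted p = 0.000206), and Hdac11, a histone deacetylase, fell by 2.59 (SE 0.36; edgeR adjusted p = 0.000577). DNA repair genes rose in 12 of 26 cases, among them the base excision scaffold Xrcc1, but in 7 when tumor-derived library 2, 3 or 4 was left out. Condensin genes provided all 6 members that rose in the list of cohesin and condensin, and the 3 that fell were cohesin genes, Stag1, Stag2 and Pds5b, named after their values were seen. Without tumor-derived library 2 or 3 only Stag1 of these was called, and Stag2 also missed the threshold without tumor-derived library 1 or 4 or normal library 2 or 3 (edgeR adjusted p = 0.0707 to 0.106).

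RNA processing rose more moderately. Among spliceosome, SR and hnRNP genes 10 of 31 rose and the other 21 were not called, with a median log2 fold change of 0.50. Snrpe, a core protein of the spliceosomal particles, had 526, 509, 552 and 506 CPM in tumor-derived astrocytes, against 149, 131, 130 and 107 CPM in normal astrocytes. Its spread within each group was small and its log2 fold change was 2.02 ± 0.21 (edgeR adjusted p = 0.000116). Ptbp1, the splicing repressor that holds back neuronal exons, had 16.9, 22.6, 38.2 and 16.3 CPM in tumor-derived astrocytes, against 0.169, 0.21, 0 and 0.18 CPM in normal astrocytes (a log2 fold change of 7.31 ± 0.84, edgeR adjusted p = 0.000206). Neuronal RNA-binding proteins stayed near the background, with 5 of 26 higher and 5 lower (19.2% each). Leaving out normal library 2 gave 8 higher, and leaving out tumor-derived library 2 or 3 gave 3 lower. Rbfox2, which regulates neuronal exons, rose by 2.12 ± 0.37 (edgeR adjusted p = 0.00173), and Elavl3, a neuronal mRNA stabiliser, by 1.33 ± 0.33 (edgeR adjusted p = 0.0103).

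Genes of protein synthesis rose at several steps. The share of counts on ribosomal protein genes was 21.45% to 25.81% in tumor-derived libraries, 5.95% to 9.82% in normal libraries and 21.66% to 25.42% in GNP libraries. Ribosome biogenesis genes rose in 13 of 27 cases (48.1%), though in 8 without tumor-derived library 2 and in 7 without library 3. Nhp2, a protein of the RNA-modifying small nucleolar particles, had 572, 1130, 752 and 1144 CPM in tumor-derived astrocytes, against 180, 234, 224 and 145 CPM in normal astrocytes (a log2 fold change of 2.20 ± 0.29, edgeR adjusted p = 0.000411). Translation factors rose in 17 of 34 cases and fell in 4. Eef2, which moves the ribosome along the mRNA (chromosome 10, 81176631 to 81182507), had 3837, 7849, 6963 and 6420 CPM in tumor-derived astrocytes, against 1048, 1128, 527 and 783 CPM in normal astrocytes, a log2 fold change of 2.85 ± 0.31 (edgeR adjusted p = 0.000165). Eif1, which guides start codon choice, went the other way, with 888, 908, 846 and 998 CPM in tumor-derived astrocytes, against 1672, 1427, 1658 and 1308 CPM in normal astrocytes. Its log2 fold change was -0.74 ± 0.18 (edgeR adjusted p = 0.0102). Aminoacyl-tRNA synthetases rose in 5 of 20 cases, with Sars at 1.72 ± 0.31 and Gars at 1.85 ± 0.31 on the log2 scale (edgeR adjusted p = 0.00233 and 0.00151). That count was 3 without tumor-derived library 3 and 8 without normal library 3. Mitochondrial ribosomal proteins stayed near the background, with 12 of 73 higher and a median of 0.24.

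Protein breakdown and folding followed different patterns. Proteasome genes rose in 13 of 37 cases, by small amounts, with a median log2 fold change of 0.52. The count was 7 without tumor-derived library 2 or 3. Psmb4, a subunit of the catalytic core, had 860, 877, 1040 and 963 CPM in tumor-derived astrocytes, against 415, 523, 354 and 446 CPM in normal astrocytes (a log2 fold change of 1.11 ± 0.20, edgeR adjusted p = 0.00222). Chaperones moved both ways, with 7 of 33 higher and 10 lower, and 4 higher without tumor-derived library 3. The cytosolic HSP90 pair moved in opposite directions. Hsp90aa1, the inducible form, had 777, 551, 470 and 576 CPM in tumor-derived astrocytes, against 1380, 1775, 1060 and 1152 CPM in normal astrocytes, a log2 fold change of -1.18 ± 0.24 (edgeR adjusted p = 0.00405). Hsp90ab1, the constitutive form, had 4804, 5531, 6395 and 5301 CPM in tumor-derived astrocytes, against 3509, 2943, 2351 and 2106 CPM in normal astrocytes, a log2 fold change of 1.01 ± 0.21 (edgeR adjusted p = 0.00407). Calr, the calcium-binding chaperone of the endoplasmic reticulum, fell by 1.10 on the log2 scale (SE 0.26; edgeR adjusted p = 0.00812).

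Genes of energy metabolism fell more often than they rose, with exceptions at single steps. Respiratory chain and ATP synthase subunits fell in 32 of 77 cases (41.6%) and rose in 7, with a median log2 fold change of -0.50. The number higher was 3 without tumor-derived library 2 and 4 without tumor-derived library 3 or 4 or normal library 1. Atp5b, the catalytic subunit of the ATP synthase, had 2125, 1907, 2288 and 1958 CPM in tumor-derived astrocytes, against 3922, 3505, 3932 and 3907 CPM in normal astrocytes. The difference was modest but well outside the spread of both groups (log2 fold change -0.88 ± 0.17, edgeR adjusted p = 0.00253). In the tricarboxylic acid cycle 8 of 21 fell and 1 rose, and 5 fell without tumor-derived library 2. Mdh1, the cytosolic malate dehydrogenase of the malate-aspartate shuttle, had 167, 71.8, 112 and 81.7 CPM in tumor-derived astrocytes, against 603, 534, 1096 and 981 CPM in normal astrocytes (a log2 fold change of -2.89 ± 0.36, edgeR adjusted p = 0.000301). The one that rose was Idh2, the NADP-dependent isocitrate dehydrogenase of mitochondria (chromosome 7, 80094846 to 80115392). It had 168, 318, 450 and 343 CPM in tumor-derived astrocytes, against 20.2, 50.7, 5.88 and 35 CPM in normal astrocytes, a log2 fold change of 3.52 ± 0.60 (edgeR adjusted p = 0.00165). Idh3b, of the NAD-dependent enzyme, fell by 1.51 (SE 0.24; edgeR adjusted p = 0.00118).

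Genes of sugar metabolism moved both ways, in several cases with paralogous enzymes in opposite directions. Of 27 genes of sugar, glycogen and pentose phosphate metabolism 6 rose and 10 fell. Ldha, which favours lactate production, had 968, 777, 801 and 698 CPM in tumor-derived astrocytes, against 364, 324, 263 and 289 CPM in normal astrocytes, a log2 fold change of 1.39 ± 0.21 (edgeR adjusted p = 0.000855). Ldhb, its partner subunit, had 596, 765, 795 and 888 CPM in tumor-derived astrocytes, against 1607, 1255, 2359 and 3315 CPM in normal astrocytes, a log2 fold change of -1.49 ± 0.30 (edgeR adjusted p = 0.00394). The subunits thus moved in opposite directions in samples that did not overlap for either. Hk2, the hexokinase of growing and tumor tissue, rose by 3.96 ± 0.85 and Hk1, the main brain form, fell by 1.47 (SE 0.34; edgeR adjusted p = 0.00522 and 0.00804). Eno1 rose by 0.75 ± 0.19 while Eno2, the neuronal enolase, fell by 3.07 (SE 0.35; edgeR adjusted p = 0.0108 and 0.000214). Aldoc, the aldolase of astrocytes and Purkinje cells, fell to 201, 495, 488 and 655 CPM in tumor-derived astrocytes, against 10101, 3947, 4222 and 7048 CPM in normal astrocytes (a log2 fold change of -3.78 ± 0.43, edgeR adjusted p = 0.000201). Aldoa, the aldolase found in most tissues, fell too, with 1441, 769, 888 and 884 CPM in tumor-derived astrocytes, against 2709, 2117, 2625 and 2700 CPM in normal astrocytes (a log2 fold change of -1.35 ± 0.23, edgeR adjusted p = 0.00183). Both phosphofructokinases measured as a pair, Pfkp and Pfkm, fell by similar amounts, 1.47 and 1.28 on the log2 scale. Gapdh rose by 1.04 ± 0.24 (edgeR adjusted p = 0.00683). Ckmt1, the mitochondrial creatine kinase that carries phosphate out of mitochondria, had 103, 45, 52.4 and 61.2 CPM in tumor-derived astrocytes, against 464, 492, 417 and 483 CPM in normal astrocytes (a log2 fold change of -2.83 ± 0.30, edgeR adjusted p = 0.000137).

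**Figure D4:**
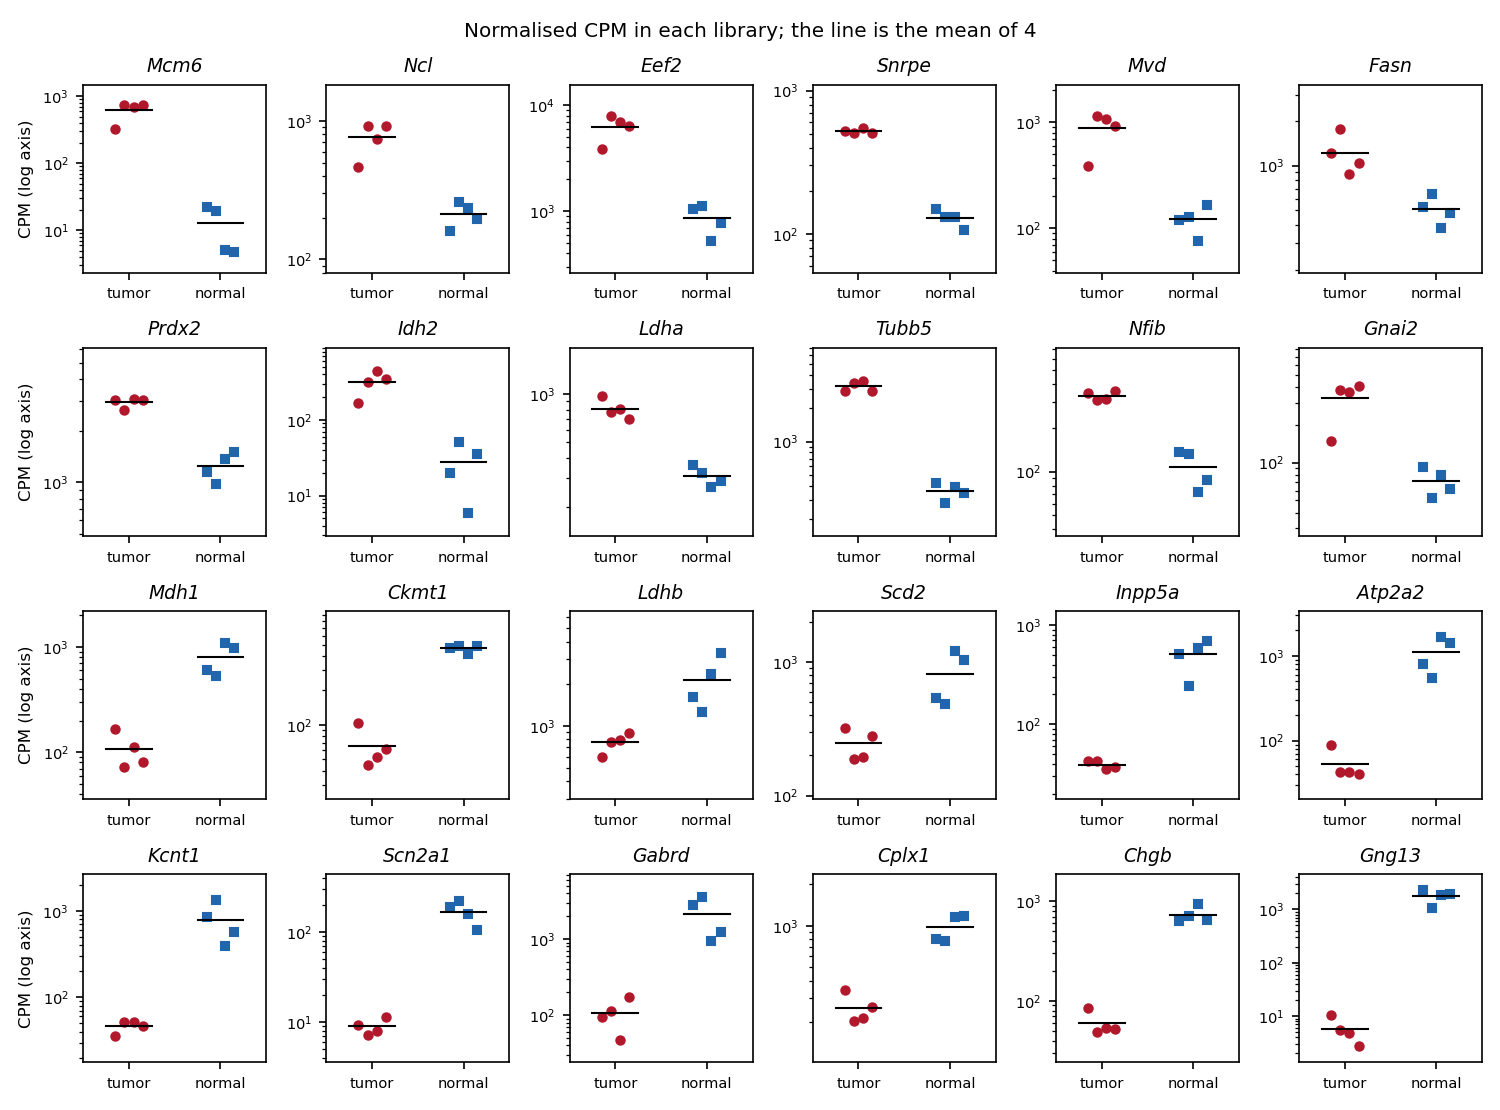
Normalised CPM (log axes, each with its own range) of 24 genes in the 4 tumor-derived (left, red) and 4 normal (right, blue) libraries, with the mean as a line. The first 12 genes lie higher in every tumor-derived library than in any normal one, and the last 12 lie lower. All 24 were picked among called genes, and the CPM of 38.3% of all 13149 genes tested did not overlap between the groups either.

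Lists of lipid genes lay near the background, while single members of lipid synthesis and iron storage moved in opposite directions. Mvd, which makes the isoprene unit of sterols (chromosome 8, 122433596 to 122443422), had 388, 1138, 1073 and 934 CPM in tumor-derived astrocytes, against 119, 128, 76.4 and 165 CPM in normal astrocytes (a log2 fold change of 2.85 ± 0.37, edgeR adjusted p = 0.000414). Of 22 sterol genes 4 rose (18.2%) and 2 fell (9.09%), and 2 rose when any 1 tumor-derived library was left out. Fasn, fatty acid synthase, had 1211, 1755, 879 and 1033 CPM in tumor-derived astrocytes, against 525, 643, 381 and 478 CPM in normal astrocytes, a log2 fold change of 1.27 ± 0.27 (edgeR adjusted p = 0.00465). The desaturases that act on its product fell: Scd2 by 1.73 (SE 0.35) and Scd1 by 2.84 (SE 0.49), with edgeR adjusted p = 0.00357 and 0.00172. Scd2 had 322, 188, 193 and 282 CPM in tumor-derived astrocytes, against 541, 483, 1210 and 1042 CPM in normal astrocytes. Acsbg1, a brain acyl-CoA synthetase, fell by 2.97 (SE 0.43; edgeR adjusted p = 0.000732). The ferritin chains parted in the same manner. Ftl1, the light chain, had 3446, 3999, 1541 and 1793 CPM in tumor-derived astrocytes, against 585, 690, 405 and 558 CPM in normal astrocytes, and Fth1, the heavy chain that oxidises iron, had 1202, 552, 560 and 902 CPM in tumor-derived astrocytes, against 2081, 2234, 1823 and 1653 CPM in normal astrocytes. Their log2 fold changes were 2.27 ± 0.34 and -1.28 ± 0.28 (edgeR adjusted p = 0.000832 and 0.00559). Both have processed pseudogene copies with which reads may be shared. Prdx2, a peroxidase, rose by 1.24 ± 0.20 (edgeR adjusted p = 0.00109).

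Lysosomal genes moved both ways, with 9 of 32 higher and 8 lower, while the pump that acidifies lysosomes and synaptic vesicles moved one way, with 9 of 19 subunits and accessory genes lower and the other 10 not called. Npc2, which carries cholesterol out of lysosomes, had 884, 953, 965 and 921 CPM in tumor-derived astrocytes, against 290, 158, 131 and 182 CPM in normal astrocytes, a log2 fold change of 2.29 ± 0.27 (edgeR adjusted p = 0.000236). The protease genes Ctsd and Ctsz rose by 1.06 ± 0.26 and 1.90 ± 0.35, and Ctsb fell by 0.77 (SE 0.22; edgeR adjusted p = 0.0101, 0.0025 and 0.0215). Atp6v1e1, a stalk subunit of the proton pump, had 185, 104, 117 and 158 CPM in tumor-derived astrocytes, against 398, 292, 486 and 461 CPM in normal astrocytes (a log2 fold change of -1.54 ± 0.27, edgeR adjusted p = 0.00196). Microglial genes rose beside the lysosomal ones in 6 of 15 cases. Trem2, a lipid receptor of microglia, had 46.8, 87.9, 89.3 and 76.6 CPM in tumor-derived astrocytes, against 16.3, 2.42, 7.15 and 12.1 CPM in normal astrocytes (a log2 fold change of 2.98 ± 0.56, edgeR adjusted p = 0.00261). Whether those cells carry the lysosomal difference was not tested.

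Genes of ion transport fell more often than the background. Pumps and exchangers fell in 12 of 21 cases (57.1%), with a median log2 fold change of -1.52, and potassium and HCN channels in 17 of 27 (63.0%), with a median of -2.28; the other members were not called. Atp2a2, the pump that fills the endoplasmic reticulum with calcium, had 88.2, 42.4, 43 and 40.9 CPM in tumor-derived astrocytes, against 795, 553, 1680 and 1398 CPM in normal astrocytes (a log2 fold change of -4.37 ± 0.44, edgeR adjusted p = 0.000116). Kcnt1, a sodium-activated potassium channel, had 35.3, 52, 51.3 and 46.1 CPM in tumor-derived astrocytes, against 859, 1327, 394 and 566 CPM in normal astrocytes, a log2 fold change of -4.09 ± 0.40 (edgeR adjusted p = 9.96e-05). Sodium and calcium channels fell in 11 of 23 cases and rose in 4, or in 2 without tumor-derived library 1, 2 or 4. Scn2a1, a neuronal sodium channel, fell to 9.35, 7.07, 7.89 and 11.4 CPM in tumor-derived astrocytes, against 192, 221, 159 and 107 CPM in normal astrocytes (a log2 fold change of -4.24 ± 0.35, edgeR adjusted p = 5.25e-05). Cacng2, which encodes the AMPA receptor partner stargazin, was one of the exceptions, with 506, 416, 435 and 427 CPM in tumor-derived astrocytes, against 145, 54.7, 37.3 and 92.7 CPM in normal astrocytes. Its log2 fold change was 2.43 ± 0.39 (edgeR adjusted p = 0.00134).

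Synaptic genes fell at both sides of the synapse. Vesicle release and recycling genes fell in 22 of 31 cases (71.0%) and rose in 1, transmitter receptors fell in 18 of 29 and rose in 2, and postsynaptic scaffolds fell in 12 of 25, the other 13 not being called. Cplx1, which clamps vesicle fusion, had 339, 204, 215 and 258 CPM in tumor-derived astrocytes, against 806, 780, 1164 and 1181 CPM in normal astrocytes, a log2 fold change of -1.95 ± 0.26 (edgeR adjusted p = 0.000403). Gabrd, the extrasynaptic GABA receptor subunit of granule neurons, had 93.3, 114, 47.9 and 174 CPM in tumor-derived astrocytes, against 2814, 3554, 940 and 1233 CPM in normal astrocytes (a log2 fold change of -4.31 ± 0.54, edgeR adjusted p = 0.000313). Homer3, a scaffold of Purkinje cell spines, fell by 2.95 (SE 0.39; edgeR adjusted p = 0.00041). Secretory granule and neuropeptide genes fell in 9 of 13 cases. Chgb, a granin of dense-core granules, had 85.7, 48.3, 53.9 and 52 CPM in tumor-derived astrocytes, against 631, 715, 934 and 645 CPM in normal astrocytes, a log2 fold change of -3.61 ± 0.28 (edgeR adjusted p = 5.25e-05). Cpe, which trims neuropeptides and is also made by astrocytes, fell by 2.12 (SE 0.23; edgeR adjusted p = 0.000159). These are largely neuronal genes, and the shares of neuron markers given above differ between the groups in the same direction. The synaptic and neuron marker lists share members, such as Homer3 and Cbln1, so part of that agreement follows from the overlap. Whether neuron content carries the synaptic differences was not tested.

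Second messenger genes fell as well. Phosphoinositide signalling genes fell in 14 of 29 cases (48.3%) and the other 15 were not called. Inpp5a, which removes a phosphate from inositol trisphosphate, had 42.4, 42.3, 35.3 and 37 CPM in tumor-derived astrocytes, against 510, 245, 587 and 692 CPM in normal astrocytes, and the tumor-derived values lay close together (log2 fold change -3.70 ± 0.34, edgeR adjusted p = 8.18e-05). Itpr1, the receptor for that messenger and strong in Purkinje cells, had 50.5, 19.9, 23.9 and 21.4 CPM in tumor-derived astrocytes, against 808, 368, 1794 and 1603 CPM in normal astrocytes (a log2 fold change of -5.30 ± 0.57, edgeR adjusted p = 0.000161). Cyclic nucleotide, protein kinase C and G protein genes fell in 20 of 43 cases and rose in 5, or in 3 without any 1 of the tumor-derived libraries or without normal library 2. Calcium-binding proteins and calcineurin subunits fell in 15 of 28 cases (53.6%) with a median log2 fold change of -1.26, and rose in 4, a count that was 1 without tumor-derived library 1 and 2 without any other tumor-derived library or normal library 4. Gng13, a G protein gamma subunit (chromosome 17, 25717171 to 25719406), had 10.3, 5.54, 4.8 and 2.72 CPM in tumor-derived astrocytes, against 2273, 1045, 1875 and 1981 CPM in normal astrocytes. That 309-fold difference was a log2 fold change of -8.27 ± 0.51 (edgeR adjusted p = 1.69e-05). Gnai2, an inhibitory alpha subunit found widely outside neurons, rose instead, with 150, 376, 366 and 411 CPM in tumor-derived astrocytes, against 91.7, 52.2, 80 and 61.3 CPM in normal astrocytes (a log2 fold change of 2.19 ± 0.35, edgeR adjusted p = 0.00126).

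The cytoskeleton exchanged members rather than moving one way. Of 36 tubulin and microtubule genes 10 rose and 17 fell. Tubb5, the beta tubulin of dividing cells (chromosome 17, 35833921 to 35838306), had 2857, 3357, 3503 and 2869 CPM in tumor-derived astrocytes, against 426, 282, 390 and 343 CPM in normal astrocytes, a log2 fold change of 3.13 ± 0.21 (edgeR adjusted p = 2.29e-05). Tuba4a fell to 107, 87.6, 75.5 and 81.8 CPM in tumor-derived astrocytes, against 540, 302, 644 and 889 CPM in normal astrocytes (a log2 fold change of -2.75 ± 0.33, edgeR adjusted p = 0.000262). Mapt, the axonal protein tau, fell by 1.95 (SE 0.31; edgeR adjusted p = 0.00118). Tubulins are near copies of each other, so reads may be assigned to the wrong member. Among actin, lamin and intermediate filament genes 11 of 37 rose and 6 fell, or 3 fell without tumor-derived library 2, 3 or 4. Nes, the intermediate filament nestin of neural progenitors and reactive glia, had 294, 515, 614 and 510 CPM in tumor-derived astrocytes, against 20.6, 6.94, 18.1 and 16.8 CPM in normal astrocytes (a log2 fold change of 4.95 ± 0.41, edgeR adjusted p = 5.44e-05). Gfap, the filament of mature and reactive astrocytes, had 62.6, 146, 78 and 68.3 CPM in tumor-derived astrocytes, against 1.01, 38, 0.874 and 1.62 CPM in normal astrocytes. Although the groups did not overlap, Gfap missed the threshold (log2 fold change 3.10 ± 1.15, edgeR adjusted p = 0.0595), with normal library 2 far above its group. Without that library the log2 fold change was 6.24 (edgeR adjusted p = 0.000114), the largest of all settings tried. Over all settings the log2 fold change of Gfap was 2.69 to 6.24, with adjusted p of 0.000114 to 0.142 (edgeR or DESeq2).

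Surface, matrix and signalling genes gave smaller groups of changes. Collagens, laminins and integrins rose in 15 of 52 cases (28.8%), in 9 without tumor-derived library 1, and fell in 4. Col9a3, a chain of a cartilage-type collagen, had 174, 182, 169 and 279 CPM in tumor-derived astrocytes, against 19.8, 53.7, 47.9 and 61.2 CPM in normal astrocytes, a log2 fold change of 2.14 ± 0.37 (edgeR adjusted p = 0.00189). Axon guidance genes rose in 10 of 53 cases and fell in 10, or in 5 without tumor-derived library 2 or 3 and in 6 without library 4. The semaphorin receptor gene Plxnb2 rose by 1.49 ± 0.38 (edgeR adjusted p = 0.0131). In the Notch, Wnt, BMP and growth factor list 8 of 42 rose and 8 fell. Mdk, the growth factor midkine, had 386, 349, 257 and 171 CPM in tumor-derived astrocytes, against 27.3, 33.9, 36 and 35.7 CPM in normal astrocytes (a log2 fold change of 3.13 ± 0.31, edgeR adjusted p = 0.000112). Ntrk2, the BDNF receptor that astrocytes carry in a truncated form, fell by 1.65 (SE 0.35; edgeR adjusted p = 0.00465).

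Among lineage transcription factors 10 of 35 rose and 6 fell. Nfib, a nuclear factor of gliogenesis and of granule neuron development, had 349, 312, 316 and 357 CPM in tumor-derived astrocytes, against 136, 133, 72 and 87.8 CPM in normal astrocytes (a log2 fold change of 1.64 ± 0.27, edgeR adjusted p = 0.0013). Hes6, which opposes Notch effectors, rose by 2.43 ± 0.35, and Pax6, a factor of granule progenitors, by 1.65 ± 0.30 (edgeR adjusted p = 0.000732 and 0.00226). Etv1, a factor of maturing granule neurons, had 26.9, 13.7, 10.2 and 15.4 CPM in tumor-derived astrocytes, against 307, 562, 177 and 156 CPM in normal astrocytes, a log2 fold change of -4.18 ± 0.51 (edgeR adjusted p = 0.000268). Imprinted genes fell in 8 of 19 cases and rose in 3. The noncoding RNA gene Peg13 (chromosome 15, 72805600 to 72810324) had 99.7, 135, 128 and 169 CPM in tumor-derived astrocytes, against 608, 686, 402 and 455 CPM in normal astrocytes (a log2 fold change of -2.02 ± 0.26, edgeR adjusted p = 0.000403). Apoptosis regulators stayed at the background, with 3 of 18 higher and 1 lower. Bax, which opens the mitochondrial membrane, rose by 1.91 ± 0.39, and Apaf1, the core of the apoptosome, by 3.26 ± 0.72 (edgeR adjusted p = 0.00377 and 0.00601), while the inhibitor gene Xiap was the one that fell, a call lost without any 1 of the tumor-derived libraries (edgeR adjusted p = 0.051 to 0.0769).

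Several further lists stayed near the background or moved both ways. Antioxidant and metal-binding proteins rose in 7 of 30 cases and fell in 6, with 4 higher without tumor-derived library 1, 2 or 3. Genes of fatty acid synthesis and oxidation rose in 3 of 28 cases (10.7%) and fell in 6 (21.4%), with 5 higher without normal library 2 or 4. Genes of the early secretory pathway rose in 7 of 34 cases and fell in 6. Nuclear pore and transport genes rose in 5 of 30 cases, in 3 without tumor-derived library 2 or 3, and fell in 2. Cadherins and immunoglobulin adhesion genes rose in 4 of 35 cases, in 2 without tumor-derived library 2, 3 or 4 and in 7 without normal library 1, and fell in 10. Among 13 immediate early genes 1 rose and 3 fell; these genes respond within minutes to firing and to handling.

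Noncoding classes are read against the same background of 17.0% higher and 16.6% lower. Of 281 lincRNA genes 55 rose (19.6%) and 28 fell (9.96%), and of 208 antisense genes 39 rose (18.8%) and 17 fell (8.17%), so that the shares that rose lay near the background and those that fell below it. Processed pseudogenes rose in 152 of 435 cases (34.9%) and fell in 14 (3.22%). Their reads, and those of antisense genes where counting ignored strand, may belong to the parent or partner gene. Snhg11, a small nucleolar RNA host gene of neurons (chromosome 2, 158375638 to 158386145), fell, with 108, 34.5, 34.1 and 53.4 CPM in tumor-derived astrocytes, against 2662, 2660, 3508 and 3686 CPM in normal astrocytes, a log2 fold change of -5.77 ± 0.44 (edgeR adjusted p = 4.92e-05).

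The balance between family members was measured within each library as the log2 ratio of the counts of 2 paralogs, which does not depend on library scaling. Only its difference between the groups is read, since transcripts of unequal length are not corrected for. Of 39 pairs with enough counts, 26 had a changed ratio in an exact two-sided permutation test over the 70 ways to divide 8 libraries into 2 groups of 4, each at p = 0.0286, the smallest this design allows, and at 0.0429 after Benjamini-Hochberg adjustment over 39 pairs. That p means that the 4 values of one group all lay above the 4 of the other; the CPM of 38.3% of the 13149 genes tested did not overlap between the groups either. The pairs were chosen with earlier results of these data known, so that nothing is read from the number that changed. Since most pairs were written with the member known from dividing or non-neuronal cells on top, the direction of 24 higher and 2 lower ratios follows from that order. At least 8-fold changes were seen in 20 pairs with 0.5 added to each count, and in 18 of these with 5 added, where Hmgb2 over Hmgb1 differed by 2.15 and Rbl1 over Rbl2 by 2.70. The difference in the lamin pair, Lmnb1 over Lmna, was 7.01 with 0.5 added and 4.10 with 5 added. The ratio of Eif4a1 to Eif4a2, alternative helicases of translation initiation, was 4.96, 6.00, 5.43 and 6.03 in tumor-derived astrocytes, against 1.38, 2.47, 0.82 and 1.31 in normal astrocytes. The ratio of Tubb5 to Tubb4a was 4.15 to 5.12 in tumor-derived and -0.47 to 0.39 in normal astrocytes, a difference of 4.59. For Ldhb over Ldha it was -0.70, -0.02, -0.01 and 0.35 in tumor-derived astrocytes, against 2.14, 1.95, 3.17 and 3.52 in normal astrocytes, a difference of -2.79. The chloride transporters Slc12a2, which loads cells with chloride, and Slc12a5, which extrudes it in mature neurons, had ratios of -0.50 to 0.70 in tumor-derived and -4.15 to -1.31 in normal astrocytes, a difference of 3.13. The ratio of the NMDA receptor subunits Grin2b, the developmental form, and Grin2c, the form of mature cerebellum, was -0.67 to 1.12 in tumor-derived and -8.99 to -6.89 in normal astrocytes, a difference of 7.96. The ratio of Snap23 to Snap25, vesicle fusion proteins of general and of neuronal secretion, differed by 9.03, or by 8.03 without normal library 1 and by 9.67 without normal library 4.

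Other pairs were not called. The ratio of Pfkp to Pfkm was -1.23 to 0.28 in tumor-derived and -0.52 to -0.28 in normal astrocytes (exact permutation p = 0.4). That of the glutamate transporters Slc1a3 and Slc1a2 ranged over values that overlapped, with a difference of 0.32. A changed ratio alone shows that the members changed unequally and not which of them moved. Among pairs with a changed ratio, Lmna, Rbl2, Slc12a2, Cdk5 and Dnm2 were not called as single genes in any setting. Their partners Lmnb1, Rbl1, Slc12a5, Cdk4 and Dnm1 were called in every setting that held them.

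**Figure D5:**
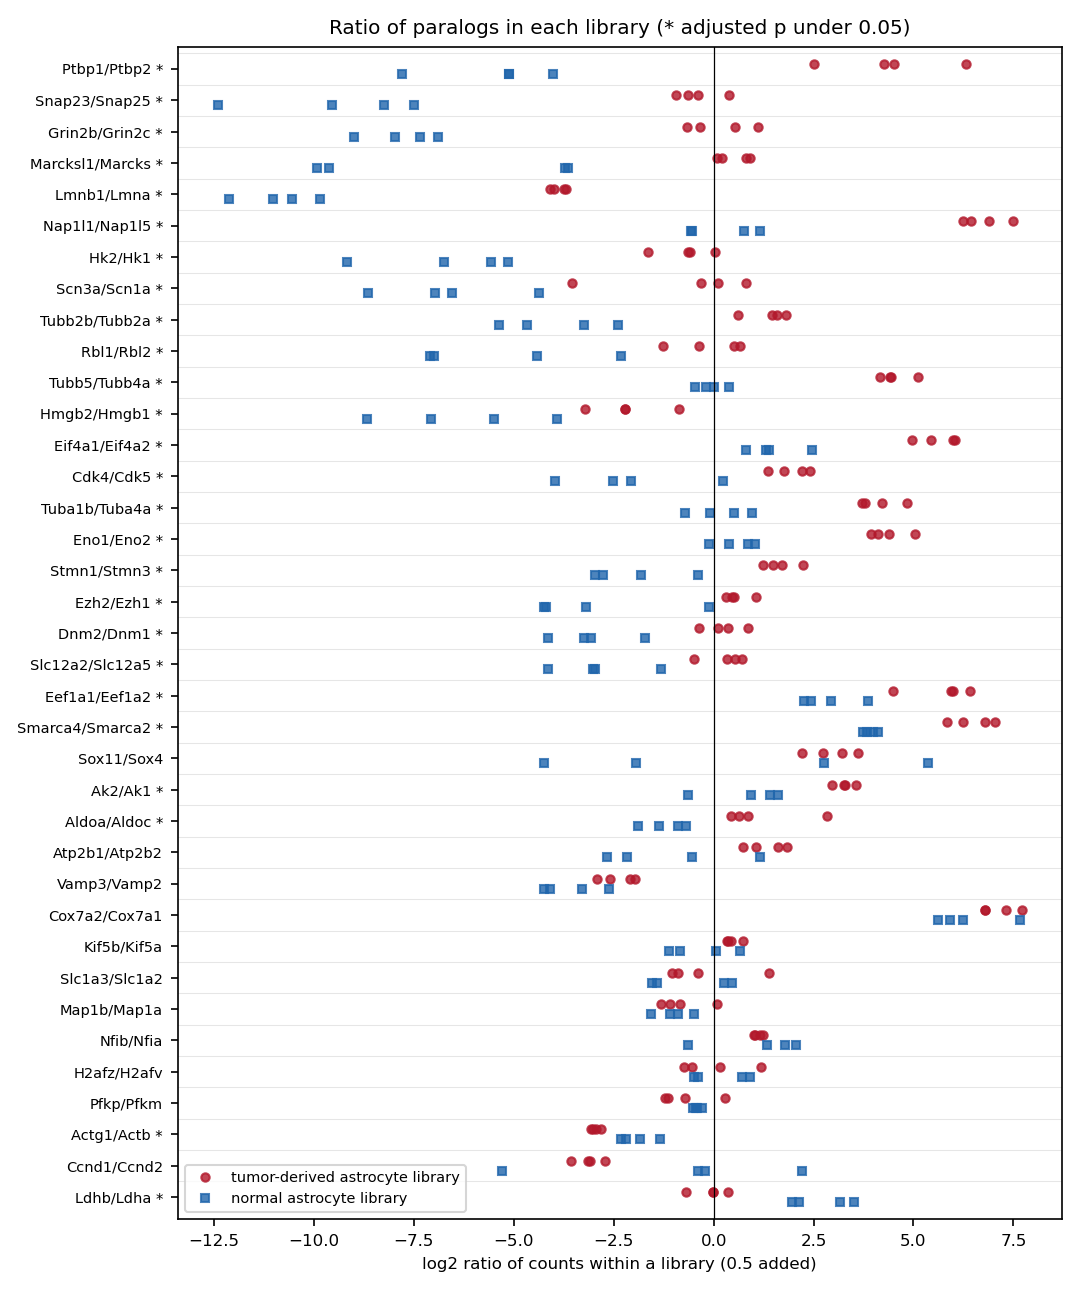
Log2 ratio of the counts of 2 paralogs within each library (0.5 added to each count), with tumor-derived libraries as red circles above and normal libraries as blue squares below in each row, for the pairs reported, ordered by the difference between the groups. Asterisks mark the 26 pairs with an adjusted exact permutation p of 0.0429; Ptbp1/Ptbp2 differs by 9.91 and Ldhb/Ldha by -2.79, and the order depends on the counts added: with 5 added Ptbp1/Ptbp2 differs by 7.47, Grin2b/Grin2c by 7.61 and Snap23/Snap25 by 7.85.

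A few genes were held within narrow bounds. The 95% interval of the log2 fold change lay within 1 on either side of 0 for 604 genes and within 0.5 for 6. Gpi1, the glycolytic enzyme between hexokinase and phosphofructokinase, had 1255, 1224, 1228 and 1455 CPM in tumor-derived astrocytes, against 1445, 1278, 1092 and 1402 CPM in normal astrocytes, with an interval of the log2 fold change between -0.42 and 0.39. Tubb4b, a beta tubulin of ubiquitous expression, had 947 to 1159 CPM in tumor-derived and 846 to 1233 CPM in normal astrocytes, with an interval between -0.43 and 0.44, while other tubulin genes moved in both directions.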

How the data were processed

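RNA of laser-captured cells was sequenced in 12 libraries, of which the 8 astrocyte libraries are compared here. The authors deposited raw read counts per gene. Reads were aligned to mm10 with STAR after FastQC, per the submitters' processing notes. For the counting program, annotation and strand setting, nothing is given in the sources used here. Of 47284 lines in the table, 767 repeats of a line were removed. Counts below are per gene, with groups taken from the labels.

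Genes were kept by edgeR's filter (10 counts, 15 in total), which left 13149, scaled by TMM and tested with edgeR's quasi-likelihood test (4.0.16, robust, R 4.3.3) on the 8 libraries alone, since 3 GNP libraries are near copies of each other and would shrink a shared spread. P-values were adjusted by Benjamini-Hochberg over all genes, and a gene was called at an adjusted p under 0.05. CPM are computed from the deposited counts with the TMM factors, 0.85 to 0.98 in tumor-derived and 1.06 to 1.16 in normal libraries. A ± after a log2 fold change is its standard error, with 4 libraries a group. Counts of 0 were bounded at 3 counts in a library, on average 0.325 CPM for a tumor-derived library and 0.269 CPM for a normal one; such bounds cover counting error only. The method was run on simulated data in which both groups had the same spread. The real groups differ in spread, with coefficients of variation of 0.426 and 0.898, so its behaviour under unequal spread was not tested.

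Paralog ratios used 0.5 added to each count and an exact permutation test (scipy 1.17.1). Genes named are the most abundant called members of each list in each direction, the called genes of highest level and largest change, those absent in 1 group, those with a narrow interval, the members of pairs and the marker lists. The gene lists, pairs and comparison were chosen with earlier results of these data known, and 1 listed gene, Ntn3, was not matched to the table. Alternatives were RLE and upper-quartile scaling, other filters, DESeq2 (1.42.0), all 12 libraries and leaving out each library. Results for some genes are not reported here.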

Additional observations from a re-analysis of the deposited data

Results flagged for a closer look

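In groups of 4 libraries, single values were marked where the gap to the nearest other library made up more of the group's range than Dixon's critical value for 4 samples, which chance does in about 1 in 20 groups. How many such marks chance alone would give over the genes read was not tested. Tumor-derived library 1 accounts for most of the marks. It was the lowest of its group for Mcm6 at 325 CPM, against 699 to 751 CPM in the other 3, for Chaf1b at 66.8 CPM (others 159 to 171), Sars at 1740 CPM (3544 to 3578), Gapdh at 4065 CPM (6706 to 7235), Ctsz at 601 CPM (957 to 1012), Gnai2 at 150 CPM (366 to 411), Agt at 135 CPM (198 to 211) and Tubb4a at 82.1 CPM (157 to 162). It was the highest for Hdac11 at 103 CPM (39.1 to 43.8), Itpr1 at 50.5 CPM (19.9 to 23.9), Atp2a2 at 88.2 CPM (40.9 to 43), Chgb at 85.7 CPM (48.3 to 53.9) and the muscle gene Mylpf at 346 CPM (4.48 to 5.87). For each of these except Mylpf and Tubb4a, the value of library 1 lay nearer to the normal libraries than the values of the other 3 tumor-derived libraries.

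In the other tumor-derived libraries, Prdx2 was low in library 2 at 2646 CPM and Sox9 high there at 1.18 CPM, Snap23 was low in library 3 at 2.24 CPM, and Col9a3 at 279 CPM, Gpi1 at 1455 CPM and Eif4a1 at 484 CPM were high in library 4. Among normal libraries, library 2 was low for Atp5b at 3505 CPM and Aldoa at 2117 CPM and high for Gfap at 38 CPM, Grin2b at 5.36 CPM and Eif4a1 at 140 CPM, and library 3 was high for Ctsb at 1045 CPM.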

How the results depend on the processing

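The number of genes that rose was 3432 without a filter on low counts, where 61.9% of calls were higher against 50.6% in the fit reported, and 1453 with a filter of 10 CPM in 4 libraries, where 44.7% were higher; the 2 filters change how many genes are tested. The other scalings, all 12 libraries and DESeq2 kept both counts within 1.5 times. Leaving out each library gave 1592 to 2419 genes that rose and 1586 to 2277 that fell, and with 3 libraries in a group fewer degrees of freedom remain. Every gene called without tumor-derived library 2 or 3 as higher had been called so with all 8. Upper-quartile scaling put the median log2 fold change of all genes at 0.19, against 0.05 with TMM, a shift that applies to every fold change given. DESeq2 called 2844 higher and 2562 lower, sharing 2211 and 2164 with edgeR. Adding 5 counts in place of 0.5 ended the call of 1 pair, Rbl1 over Rbl2, whose log2 ratio then differed by 2.70 (adjusted exact permutation p = 0.0796). No paired analysis was possible because the labels give the libraries no shared replicate numbers, and the numbers used here only follow the order of the samples. With 4 libraries a group and a coefficient of variation of 0.685, small differences in genes of low count could not be called.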
